A study of Mus musculus with 2 samples.

Results

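Genes of the lysosome and of autophagy were followed in mouse cardiac myofibroblasts after knockdown of Bcat1. The set holds 35 genes, chosen by symbol from a list of lysosomal enzymes, lysosomal membrane proteins and autophagy factors, out of 24532 genes in the count table, with earlier results of these data known. Every member was found, and every member passed the minimum of 5 CPM (counts scaled to library size) averaged over the libraries that was set for 9935 genes. The cells were cardiac myofibroblasts from C57BL/6 mice, isolated 3 days after myocardial infarction. They received 12.5 nM of siControl (control siRNA) or of siBcat1 (siRNA against Bcat1) with a lipid reagent and were then cultured for 72 hours. Each group is 1 library, and the labels do not say whether cells of several hearts were pooled. Only 1 siRNA treatment against Bcat1 was used, and its label, siBcat1, does not say whether it held several siRNAs. There is therefore no replicate, no test and no replicate check of any difference below. Brackets after a log2 fold give its exact (Clopper-Pearson) 95% interval, which covers counting error only and takes reads as independent.

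The lysosome is the acidic compartment in which cells break down proteins, lipids, glycans and nucleic acids, and its enzymes are acid hydrolases that are each specific for a bond. Autophagy delivers cytoplasm and organelles to it: kinases and lipid-binding proteins start a membrane, a conjugation system attaches Atg8 proteins to that membrane, and receptors carry the cargo into it. The transcription factors Tfeb and Tfe3 switch on many genes of both systems when nutrient signalling through mTORC1 is low.

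The siControl library held 127309329 counts and the siBcat1 library 104581819, and Bcat1 itself had 8891 and 99 counts, lower in the library labelled as its knockdown (log2 fold -6.11). All 10 listed fibroblast genes were measured, with a summed level of 34940 CPM in siControl and 21938 CPM in siBcat1. The lower sum was carried by the collagen genes Col1a1 (11058 and 4345 CPM), Col1a2 (9535 and 3919) and Col3a1 (4638 and 2412). Postn (669 and 292), Pdgfra, Dcn, Acta2 and Tcf21 were also lower, whereas Vim (4724 and 6985) and Thy1 (90.9 and 141) were higher with siBcat1. The trend with transcript length given below is not removed from these levels. Of 14 macrophage genes, 6 had 0 counts in both libraries, among them the defining genes Ptprc, Adgre1 and C1qa, and the summed level of the list was 10.5 CPM in siControl and 29.1 CPM in siBcat1, most of it Lyz2 with 5.46 and 21.3 CPM. The summed level of 7 endothelial genes was 48.7 and 51.2 CPM, that of 8 cardiomyocyte genes 46.4 and 10.4 CPM, that of 5 mural cell genes 83.8 and 30.6 CPM and that of 6 lymphocyte genes at most 0.0152 CPM. Tnnt2 alone made up nearly all of the cardiomyocyte sum (46.3 and 10.3 CPM), with 5 of the 8 genes at 0 in both libraries. Notch3 made up most of the mural sum (80.1 and 26.5 CPM), while Rgs5, Kcnj8 and Abcc9, each at or under 2.61 CPM, were higher with siBcat1. The part of these cells in the results was not tested, and in bulk RNA fewer cells of a type and less RNA per cell cannot be told apart.

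Relative to siControl, 8 of the 35 members were higher with siBcat1 by 1.5-fold or more, 2 were lower by as much and 25 lay between. Of all 9935 genes, 17.6% were higher and 25.6% lower by this size, so the members held a share of higher genes (22.9%) near the background and fewer lower ones (5.71%). The higher members were Npc2, Gla, Neu1, Tfeb, Atg3, Map1lc3a, Gabarap and Gabarapl2. The lower ones were Npc1 and Man2b1. At 2-fold, Npc2 and Gla were higher and Npc1 was lower, beside 5.58% and 13.0% of all genes. The median log2 fold was -0.05 over the members and -0.06 over all genes.

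Transcript length has to be read beside each fold, because short transcripts were higher and long ones lower across these libraries. Length was taken as what the deposited counts and TPM (a level scaled for both transcript length and library size) imply. Which forms of each transcript the cells held was not measured. Over 9933 genes, which are not independent, length and log2 fold had a Spearman correlation of -0.663, and over the 35 members, which share the same pair of libraries, it was -0.444. With the trend of all genes removed, 4 members were past 1.5-fold upwards (Npc2, Gla, Neu1 and Ulk2), 1 downwards (Wipi1) and 30 in neither direction. The corresponding shares of all genes were 12.3% and 13.7%. Folds with the trend removed are called length-adjusted here. On the log2(TPM + 1) scale the median was -0.46 over the members and -0.47 over all genes kept, with 1 member higher and 13 lower by 1.5-fold beside 4.26% and 43.4% of the 8811 genes kept on that scale, so a member's TPM has to be read against that shift of all genes.

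**Figure D1:**
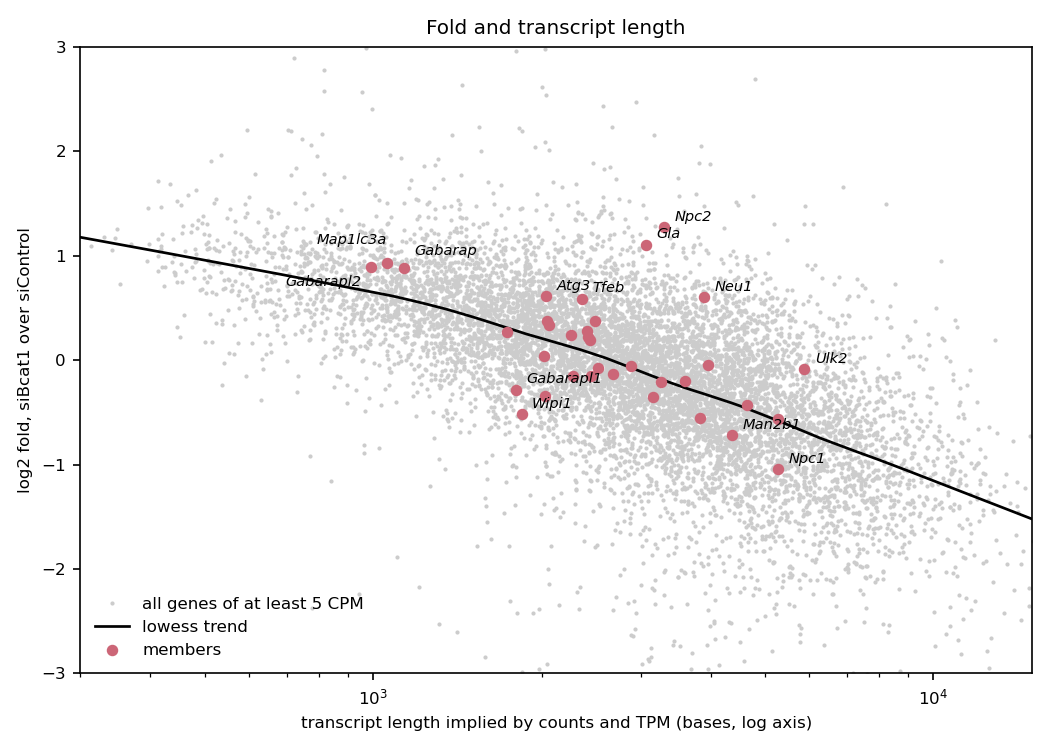
Log2 fold of siBcat1 over siControl against transcript length (log axis, bases), with every gene of at least 5 CPM as a grey point, the trend as a line and the 35 members in red; 96 genes fall outside the drawn area. Npc2 and Gla stand well above the line, the short Map1lc3a, Gabarap and Gabarapl2 lie close to it, and Npc1 is below it.

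Of the transcription factors, Tfeb had 1886 counts in siControl and 2187 in siBcat1, that is 14.4 and 21.6 CPM. This is a log2 fold of 0.59 [0.50, 0.68], just past 1.5-fold, and its interval reaches below that size. Tfe3, at 7896 and 5250 counts, showed a log2 fold of -0.21 [-0.26, -0.16]. Length-adjusted, Tfeb had 0.49 and Tfe3 -0.03, so neither passed 1.5-fold. Per length, Tfe3 was the more abundant of the pair in both libraries, with 38.5 and 23.7 TPM against 12.8 and 13.5 TPM for Tfeb. The ratio of Tfeb to Tfe3 in counts, which no scaling between libraries moves, was 0.239 in siControl and 0.417 in siBcat1. This is a log2 change of 0.80 with a 95% interval (normal approximation on the log scale, counting error only) from 0.70 to 0.90. The length trend is not removed from this ratio, and the length-adjusted folds of 0.49 and -0.03 lie closer together than the unadjusted ones.

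Both factors bind the CLEAR element, a palindrome built around CACGTG. RefSeq promoter windows on GRCm38.p6, from 250 bases before to 50 after each start site, were matched by symbol for 29 of the 35 members and searched for the exact letters CACGTG and TCACGTGA; each is its own reverse complement, so a match counts for both strands, and every TCACGTGA also holds CACGTG. The members without an entry were Becn1, Atg12, Asah1, Atg16l1, Map1lc3a and Npc1. CACGTG stood in 8 of the 34 matched windows (23.5%), against 7.15% of 32851 windows of all genes. TCACGTGA stood in 3 of 34 (8.82%), against 0.974%. The windows below show the longer match in every member that holds it, and the 4 copies of the shorter one in the Lamp1 promoter, which is the member with most. Each is 30 bases long, 5′ to 3′ on the strand of the gene, with the matched letters in capitals.
Gla, X:134601215-134601244, minus strand: taagcgattgaTCACGTGAgcatctacgtc
Gla, X:134601182-134601211, minus strand: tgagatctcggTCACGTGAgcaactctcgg
Atg3, 16:45158746-45158775, plus strand: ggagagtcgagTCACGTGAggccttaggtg
Mcoln1, 8:3500462-3500491, plus strand: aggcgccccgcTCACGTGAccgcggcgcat
Lamp1, 8:13159088-13159117, plus strand: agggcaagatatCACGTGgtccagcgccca
Lamp1, 8:13159104-13159133, plus strand: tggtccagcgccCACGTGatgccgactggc
Lamp1, 8:13159121-13159150, plus strand: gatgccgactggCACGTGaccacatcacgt
Lamp1, 8:13159134-13159163, plus strand: acgtgaccacatCACGTGcggaacggagcc

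The members with TCACGTGA in this window did not share a direction. Gla, with the match at 2 places, had a log2 fold of 1.11 and Atg3 one of 0.61, while Mcoln1 had -0.34 (length-adjusted 1.24, 0.42 and -0.54). Lamp1 had 0.24, Atg5 0.28, Glb1 0.22, Gaa -0.20 and Atg7 -0.56, which completes the 8 members with CACGTG. Their median log2 fold was 0.23 and that of the 21 matched members without it -0.05, with length-adjusted medians of 0.13 and 0.04. Npc2, the member with the largest fold, held neither form in its window. The Atg7 match (6:114670952-114670981) lies in the window of a start site inside the gene, whose annotated start is at 114643097. A match of letters is a description and does not show a bound site.

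Among lysosomal membrane and cholesterol export genes, the pair that moves cholesterol out of the lysosome was split. Npc2 encodes the soluble protein that takes up cholesterol in the lumen, and Npc1 the membrane protein that receives it from Npc2. Npc2 (GRCm38 chromosome 12, 84754562 to 84773152, minus strand) had 52446 counts with siControl and 97668 with siBcat1, or 399 and 964 CPM. Its log2 fold was 1.27 [1.26, 1.29], a 2.42-fold higher level, and 97.9% of all genes had a lower fold. Npc1 (chromosome 18, 12189692 to 12236400, minus strand) had 9509 and 3564, or 72.4 and 35.2 CPM, a log2 fold of -1.04 [-1.10, -0.98].

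Length moved these values in different ways. Npc2 has an implied length of 3302 bases and a length-adjusted fold of 1.47, whereas Npc1 has 5273 bases and -0.46, short of 1.5-fold. The value of Npc2 holds only for transcripts near its implied length. The trend is higher for short transcripts, so a shorter form would give a lower value. Which form the cells held was not tested. In TPM, Npc2 went from 254 to 432 and Npc1 from 28.8 to 9.87, and Npc2 was the member past 1.5-fold on that scale with a log2(TPM + 1) difference of 0.76. The count ratio of Npc2 to Npc1 was 5.52 in siControl and 27.4 in siBcat1, a log2 change of 2.31 with a counting interval from 2.26 to 2.37. The length trend is not removed from it either, and the length-adjusted folds of this pair lie closer together than the unadjusted ones. This pair was chosen for a ratio after its values were seen, as were the other ratios given here.

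The abundant structural proteins of the lysosomal membrane lay within 1.5-fold. Lamp1 had 958 and 1133 CPM, a log2 fold of 0.24 [0.23, 0.25], and was the lysosomal member with the highest level per length in both libraries, with 891 and 743 TPM. Lamp2, its paralogue with a further role in chaperone-mediated autophagy, had 530 and 509 CPM, a log2 fold of -0.06 [-0.08, -0.04], with length-adjusted values of 0.01 by the implied and -0.19 by the annotated length. Mcoln1, the calcium channel of the lysosomal membrane, went from 3457 to 2099 counts, with a log2 fold of -0.34 [-0.42, -0.27] and a length-adjusted one of -0.54.

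**Figure D2:**
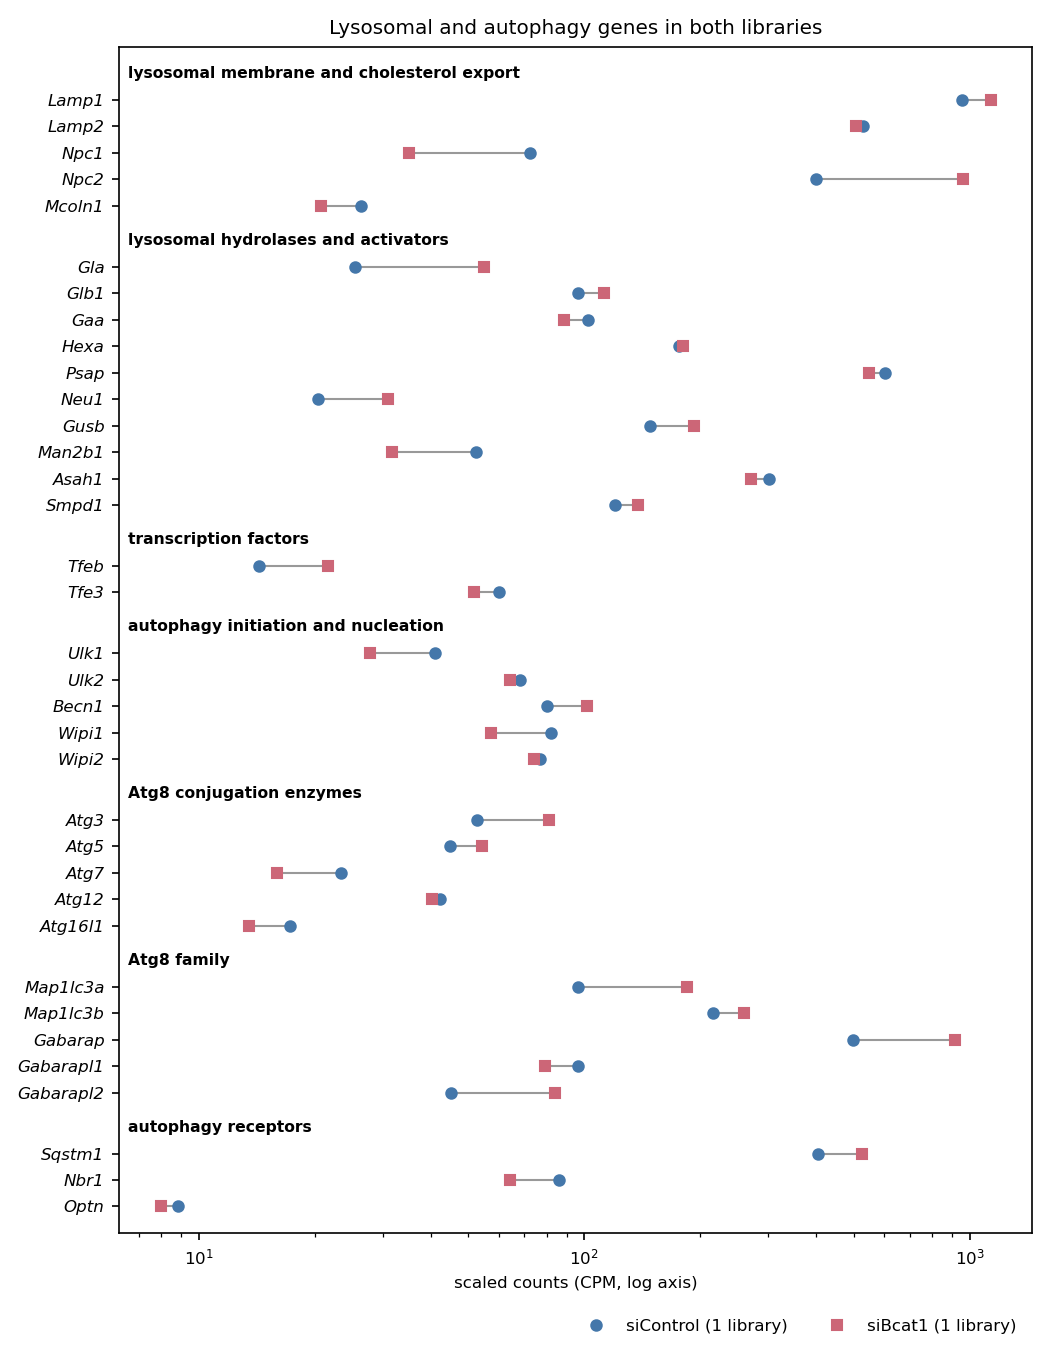
Scaled counts (CPM, log axis) of the 35 members in the siControl library (circles) and the siBcat1 library (squares), grouped by role. Npc2 moves from 399 to 964 CPM while Npc1 moves from 72.4 to 35.2, and 25 of the 35 members differ by less than 1.5-fold.

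Of the 10 lysosomal hydrolases and their activators, 2 were past 1.5-fold upwards (20%, near the 17.6% of all genes), 1 downwards (10%, beside 25.6%) and 7 in neither direction. Gla (chromosome X, 134588149 to 134601125, minus strand) encodes alpha-galactosidase A, which removes terminal galactose from glycolipids and is deficient in Fabry disease. It had 3351 counts in siControl and 5563 in siBcat1, or 25.5 and 54.9 CPM. The log2 fold was 1.11 [1.04, 1.17], a 2.15-fold higher level, with a length-adjusted value of 1.24 and a log2(TPM + 1) difference of 0.57. Of all genes, 96.2% had a lower fold.

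Neu1, the lysosomal sialidase (chromosome 17, 34931253 to 34935953, plus strand), had 2677 and 3130 counts, or 20.4 and 30.9 CPM. Its log2 fold of 0.60 [0.53, 0.68] was just past 1.5-fold, and its length-adjusted value was 0.92 with the implied length of 3898 bases and 0.56 with the annotated length of 2474 bases. Man2b1, the lysosomal alpha-mannosidase that trims glycans of glycoproteins (chromosome 8, 85083270 to 85098282, plus strand), had 6870 and 3223 counts, or 52.3 and 31.8 CPM. Its log2 fold of -0.72 [-0.78, -0.66] became -0.30 after length adjustment, inside 1.5-fold.

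The other hydrolases had log2 folds between -0.20 and 0.38. Gusb, the beta-glucuronidase, had 0.38 [0.35, 0.41], and Smpd1, the acid sphingomyelinase that makes ceramide, had 0.20 [0.16, 0.23]. Asah1, the acid ceramidase that breaks ceramide down, had -0.16 [-0.18, -0.13], and Psap, the precursor of the saposins that present sphingolipids to their hydrolases, had -0.14 [-0.15, -0.12]. Hexa, a subunit of beta-hexosaminidase, had 0.04 [0.01, 0.07], and Gaa, the enzyme for lysosomal glycogen, had -0.20 [-0.24, -0.16]. Psap was the most abundant of these per length, with 471 and 302 TPM. The least abundant hydrolase was Neu1 in siControl and Man2b1, with 10.8 TPM, in siBcat1.

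Glb1, the beta-galactosidase whose activity is used as a stain for senescent cells, had 12658 and 11397 counts and a log2 fold of 0.22 [0.19, 0.26]. It shares 165 exon bases on the same strand with Tmppe, which had 2580 and 351 counts, a log2 fold of -2.50. Summed over all counts of both genes the log2 fold was 0.00 [-0.03, 0.04]. That sum also takes in Tmppe reads from outside the shared bases. It therefore does not show how far the division of shared reads moved the value of Glb1. Other members overlap a gene on the opposite strand. Becn1 shares 3104 exon bases with Cntd1, which had at most 49 counts. Map1lc3b shares 58 with Zcchc14, which had 7601 and 1992 counts, a log2 fold of -1.56. With all Zcchc14 counts added, the log2 fold was 0.03 in place of the 0.27 of Map1lc3b alone. That sum holds Zcchc14 reads from outside the 58 shared bases, so it does not measure misassigned reads. Whether strand was used in the counting is not given in the sources used here.

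Genes that start an autophagosome, 5 of the members, lay within 1.5-fold. Ulk1, the kinase that mTORC1 restrains, had 41.1 and 27.9 CPM, a log2 fold of -0.56 [-0.63, -0.49], just short of that size, and its paralogue Ulk2 had 68.2 and 64.3 CPM, a log2 fold of -0.08 [-0.13, -0.04]. Both are long transcripts, of 5271 and 5885 bases, and length-adjusted they had 0.02 and 0.60. Becn1, part of the lipid kinase complex that marks the forming membrane, had 0.34 [0.30, 0.38] and 0.15 after adjustment by the implied length of 2056 bases. Adjusted by its annotated length of 4365 bases it had 0.77, so the length used decides on which side of 1.5-fold it falls.

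The lipid-binding proteins Wipi1 and Wipi2 differed. Wipi1 had 10792 counts in siControl and 5810 in siBcat1, or 82.1 and 57.4 CPM, a log2 fold of -0.52 [-0.56, -0.47]. As its transcript is short, 1839 bases, it had the lowest length-adjusted fold of the members, -0.78, and 8.74% of all genes were lower still on that scale. Wipi2, which recruits the conjugation complex through Atg16l1, had 76.8 and 74.2 CPM, a log2 fold of -0.05 [-0.09, -0.01], and 0.28 after adjustment.

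In the conjugation system, 1 of 5 genes was past 1.5-fold, upwards (20%, near the 17.6% of all genes), and none downwards (beside 25.6%). Atg3, the enzyme that passes Atg8 proteins to the membrane lipid (chromosome 16, 45158785 to 45188538, plus strand), had 6940 and 8188 counts, or 52.8 and 80.8 CPM, a log2 fold of 0.61 [0.57, 0.66]. Atg7, the activating enzyme that acts before Atg3, had 23.4 and 15.9 CPM, a log2 fold of -0.56 [-0.64, -0.47]. The members of the complex that directs the last step had 0.28 [0.22, 0.33] for Atg5, -0.07 [-0.13, -0.01] for Atg12 and -0.35 [-0.45, -0.25] for Atg16l1. Length-adjusted, Atg3 had 0.42, Atg7 -0.25, Atg5 0.20, Atg12 -0.11 and Atg16l1 -0.19, all within 1.5-fold. With its annotated length of 4765 bases in place of the implied 2523, Atg12 had 0.43, so its direction turns with the length used.

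The Atg8 family, the small ubiquitin-like proteins that coat the autophagosome, had 3 of 5 members higher by 1.5-fold and none lower. After length adjustment none was past that size in either direction. The shares of all genes were 17.6% higher and 25.6% lower, and 12.3% and 13.7% after length adjustment. Gabarap (chromosome 11, 69991143 to 69994951, plus strand) had 65424 counts in siControl and 93128 in siBcat1, or 498 and 919 CPM, a log2 fold of 0.89 [0.87, 0.90]. Map1lc3a (chromosome 2, 155276297 to 155278073, plus strand) had 12696 and 18691 counts, or 96.6 and 185 CPM, a log2 fold of 0.93 [0.90, 0.97]. Gabarapl2 (chromosome 8, 111940703 to 111953612, plus strand) had 5935 and 8500 counts, or 45.2 and 83.9 CPM, a log2 fold of 0.89 [0.85, 0.94]. These are the shortest transcripts among the members, of 992 to 1136 bases, and their length-adjusted folds were 0.30, 0.31 and 0.24. With its annotated length Gabarapl2 had 0.56, also inside 1.5-fold.

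The other Atg8 genes had longer transcripts and other values. Map1lc3b, the LC3 form most often used as an autophagosome marker, had 216 and 260 CPM, a log2 fold of 0.27 [0.25, 0.30] and a length-adjusted one of -0.04, or 0.24 with its annotated length. Gabarapl1 had 12632 and 8010 counts, or 96.1 and 79.1 CPM, a log2 fold of -0.28 [-0.32, -0.24] and a length-adjusted one of -0.57, just inside 1.5-fold. Within each library, Gabarap held 58.2% of the summed TPM of the family in siControl and 64.1% in siBcat1, while Gabarapl1 held 7.11% and 3.49%. The count ratio of Gabarap to Gabarapl1 was 5.18 and 11.6, a log2 change of 1.17 with a counting interval from 1.12 to 1.21. The TPM shares and this ratio both hold the length trend. The length-adjusted folds of 0.30 for Gabarap and -0.57 for Gabarapl1 lie closer together than the unadjusted ones. Gabarapl2 shares 12.2% of its 50-base transcript windows with genes outside the count table and none with a counted gene. Map1lc3b shares 5.77% with any other gene and 1.41% with counted genes. Gabarap, Gabarapl1 and Map1lc3a share none.

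The 3 cargo receptors lay within 1.5-fold. Sqstm1, or p62, which binds ubiquitinated cargo and is itself consumed by autophagy, had 53147 and 53265 counts, or 404 and 526 CPM, a log2 fold of 0.38 [0.36, 0.40] and a length-adjusted one of 0.18. Nbr1, a receptor related to Sqstm1, had 86.0 and 64.1 CPM, a log2 fold of -0.43 [-0.47, -0.38], and 0.04 length-adjusted. Optn, a receptor for damaged mitochondria and bacteria, was the member with the fewest counts, 1163 and 807, and had a log2 fold of -0.15 [-0.28, -0.02].

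**Figure D3:**
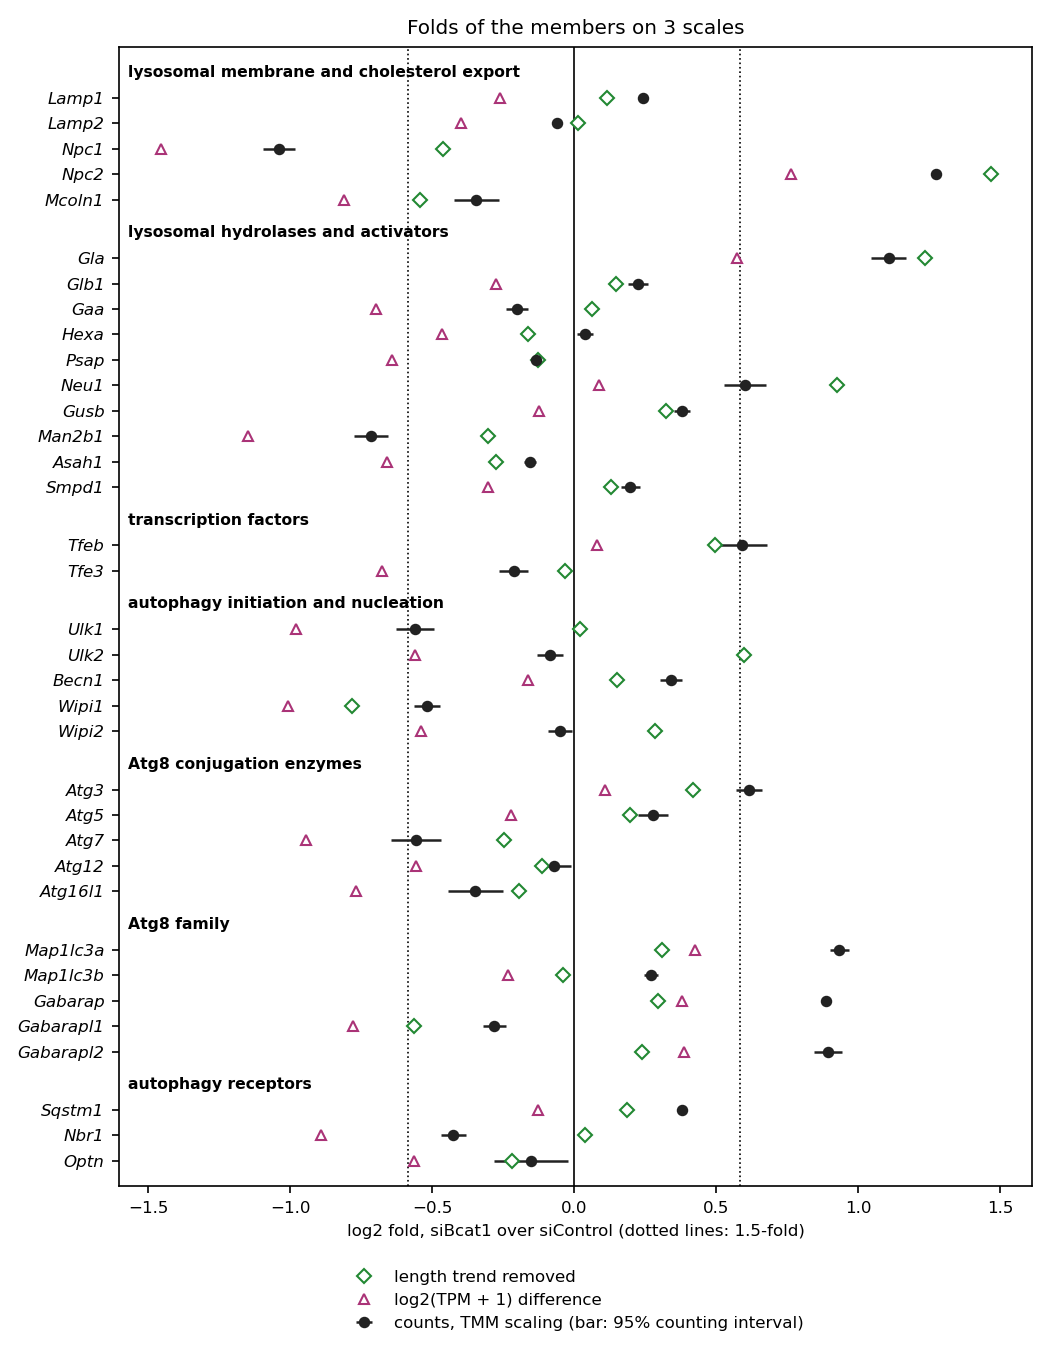
Log2 fold of siBcat1 over siControl for each member, as counts with 95% counting intervals (filled circles), with the length trend removed (diamonds) and as a log2(TPM + 1) difference (triangles); dotted lines mark 1.5-fold and each scale rests on 1 library per group. Npc2 and Gla stay far to the right on the first 2 scales, and the triangles sit to the left of the circles throughout.

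The other genes of these pathways, were taken in 7 lists of 136 genes, of which 126 were measured. Past 1.5-fold, 16 of the 126 were higher and 37 lower, with a median log2 fold of -0.22; length-adjusted, 8 were higher and 22 lower, with a median of -0.04. The shares of lower genes were 29.4% and 17.5%, beside 25.6% and 13.7% of all genes, and those of higher genes 12.7% and 6.35%, beside 17.6% and 12.3%. The median implied length of these genes was 3048 bases and that of the members 2443 bases, and whether the 2 sets differ was not tested.

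Among 30 other lysosomal hydrolases and activators, 2 were higher and 9 lower (6.67% and 30%, beside 17.6% and 25.6% of all genes). Length-adjusted, 2 were higher and 7 lower (6.67% and 23.3%, beside 12.3% and 13.7%). Lipa, the acid lipase that frees cholesterol and fatty acids from lipids taken up by the cell, had 28671 counts with siControl and 4958 with siBcat1, and its log2 fold was -2.16 [-2.20, -2.11] and a length-adjusted one of -2.05. This was far outside the range of the 10 hydrolase members, the lowest of which was Man2b1 with -0.72. Arsb, a sulfatase for glycosaminoglycans, had -1.41 (length-adjusted -1.06), and Man2b2, a further alpha-mannosidase, had -1.25 (length-adjusted -1.02). Of 23 other lysosomal membrane and sorting genes, 3 were higher and 8 lower (13.0% and 34.8%), and length-adjusted 1 was higher and 5 lower (4.35% and 21.7%). Igf2r, the large receptor that brings enzymes tagged with mannose 6-phosphate to the lysosome, had -1.74 (length-adjusted -0.68), Ostm1, the partner of a lysosomal chloride transporter, had -1.27 (-1.15) and the sorting receptor Sort1 had -1.26 (-0.42).

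The vacuolar proton pump, which acidifies the lysosome, had 8 of 17 measured genes higher by 1.5-fold (47.1%, beside 17.6% of all genes) and 1 lower (5.88%, beside 25.6%). Its members have short transcripts, with a median of 2087 bases, and after length adjustment 1 was higher (5.88%, beside 12.3% of all genes) and none lower (beside 13.7%), with a median of -0.01. That gene was Atp6v1d, with a log2 fold of 1.12 and a length-adjusted one of 0.67, or 1.40 with its annotated length. Atp6v1g1 had 1.04 (0.44) and Atp6v1f 0.81 (-0.04).

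Of all genes, 17.6% were higher and 25.6% lower, and 12.3% and 13.7% after length adjustment. Of 21 other core autophagy genes, 1 was higher and 9 were lower (4.76% and 42.9%), and after length adjustment 2 were higher and 5 lower (9.52% and 23.8%). Rubcn, an inhibitor of autophagosome maturation, had -1.46 (length-adjusted -0.87), and the lipid transfer proteins Atg2a and Atg2b had -1.41 (-0.65) and -1.35 (-0.17). Of 14 fusion genes, 1 was higher and 5 lower (7.14% and 35.7%), and after length adjustment none was higher and 2 were lower (14.3%). Vamp8, a SNARE of the lysosome, had 1.17 (0.42), and the tethers Epg5 and Tecpr1 had -1.52 (-0.38) and -1.35 (-0.97). Of 14 other receptors, 1 was higher and 2 were lower (7.14% and 14.3%), and after length adjustment 1 was higher and 1 lower (7.14% each). The largest folds were those of Wdfy3, a scaffold for aggregates, with -1.83 (-0.34), of the mitochondrial receptor Fundc1 with -0.69 (-0.59, or -1.58 with its annotated length), and of Tex264, a receptor of the endoplasmic reticulum, with 0.62 (0.30). Of 7 other regulators of the Tfeb family and its targets, none was higher and 3 were lower (42.9%). After length adjustment 1 was higher and 2 were lower (14.3% and 28.6%). Foxo3, a factor that also drives autophagy genes, had 2869 and 448 counts and -2.30 (-2.22). The others lower before length adjustment were Fnip1, a partner of folliculin, with -1.04 (-0.28), and Zkscan3, a repressor of autophagy genes, with -0.59 (-0.60).

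**Figure D4:**
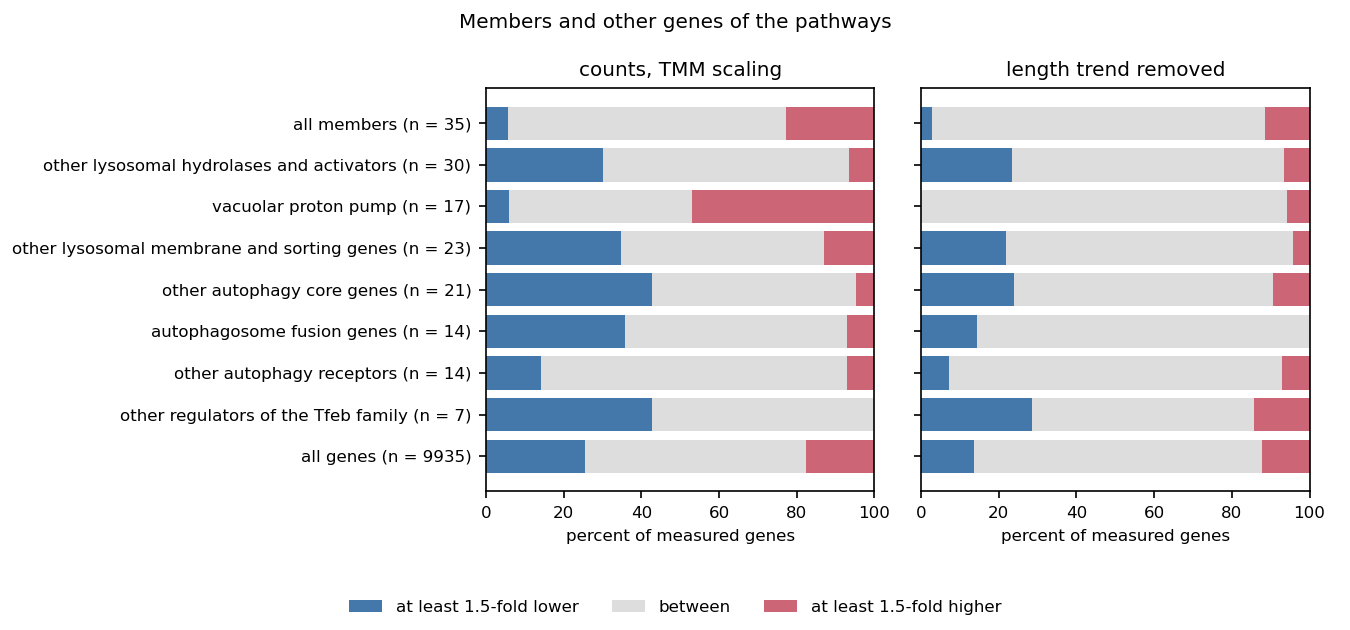
Percent of measured genes at least 1.5-fold lower, between, and at least 1.5-fold higher with siBcat1 in each list, from counts (left) and with the length trend removed (right, where 2 of all 9935 genes without a length count as between). The proton pump list goes from 8 higher genes of 17 to 1, beside 17.6% and 12.3% of all genes. On the right 7 of 30 other hydrolases and 5 of 21 other core genes are lower, beside 13.7% of all genes.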

How the data were processed

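RNA sequencing of 2 libraries, 1 per group, was analysed; groups come from the treatment label. Per the submitters' processing notes, FastQC, Trimmomatic, HISAT2, StringTie and build mm10 were used, without versions or roles; libraries were made with a stranded mRNA kit, per the labels' protocols. The gene counts deposited by the authors are whole numbers, not normalized. Per the file headers, the authors also deposited TPM, summing to 998462 and 998120. No count column lacked a sample.

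Counts were scaled with TMM factors (edgeR 4.0.16, R 4.3.3), so that 1 CPM equals 131 counts in siControl and 101 in siBcat1. No test was made. A mean of 5 CPM or more was required, and a log2 fold of at least 0.585 (1.5-fold) was a rule of size. The length trend was a lowess curve (fraction 0.3, 3 iterations, statsmodels 0.14.6) on the length that counts per TPM imply; this ratio differed by under 10% between the libraries for 98.3% of 9923 genes. Lengths annotated in GENCODE M21 (GRCm38), found for 9887 kept genes, were an alternative. Coordinates of genes are from GENCODE M21 and promoter windows from RefSeq on GRCm38.p6. Alternatives were upper-quartile factors, library totals, the size factors of DESeq2 1.42.0, TPM, and other minimums and thresholds. The interval and trend calculations were tested on simulated data. All members were named; of each further list, the 3 measured genes with the largest absolute log2 fold. Members and lists were chosen with earlier results of these data known.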

Additional observations from a re-analysis of the deposited data

How the results depend on the processing

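The numbers of members past 1.5-fold upwards (8) and downwards (2) stayed within 1.5 times under DESeq2 size factors, upper-quartile factors, and minimums of 1 or 20 CPM or none. Library totals gave 5 higher and 5 lower. TPM with a pseudocount of 1 gave 1 and 13, and with 0.1 it gave 2 and 15. Removal of the trend on annotated or implied length gave 4 and 1 in both cases, but not the same genes. Neu1 was among the 4 higher members only with the implied length, and Becn1 only with the annotated length. A 2-fold threshold gave 2 and 1, and whole intervals past 1.5-fold gave 5 higher members and 2 lower. The median log2 fold of the members, -0.05, was -0.14 with library totals, 0.078 with upper-quartile factors, -0.46 and -0.47 with TPM (pseudocounts 1 and 0.1), 0.14 and 0.063 with the annotated and implied length trends removed, and 0.038 over the 31 members above 20 CPM, so its sign is not firm. The median of all genes moved with it, to -0.15, 0.07, -0.47 and -0.49 under the first 4 of these.

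The 10 members past 1.5-fold kept their sign in all 7 scalings, units and length corrections. Of them, 10 stayed past 1.5-fold under DESeq2 and upper-quartile factors, 7 under library totals, 3 and 4 with TPM (pseudocounts 1 and 0.1), and 2 and 3 with the annotated and implied length trends removed. No paired analysis was possible because each group has 1 library. For the same reason no replicate could be left out, and counting depth, at least 807 counts for every member, does not stand in for the spread between cultures.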
